A study of Mus musculus with 9 samples.

Results

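Serpins are a family of proteins that mostly inhibit serine proteases, and 8 mouse genes of this family were followed here in embryonic fibroblasts (MEFs) that lack different pairs of H3K9 lysine methyltransferases (KMT). The 8 genes are Serpinf1, Serpine2, Serpinb2, Serpini1, Serping1, Serpinh1, Serpinb6a and Serpinb9, chosen by symbol from 61 annotated protein-coding serpin genes in a table of 47937 genes. The list was drawn up with earlier results of these counts known, and it carries no threshold. The levels and differences of the 8 genes are therefore a description without p-values, whereas genes outside the list were tested.

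Total RNA was sequenced from 3 cultures per genotype. WT is the parental MEF clone, which carries a conditional Eset1 allele and was selected for Cre activity according to the study's methods, so all genotypes share that background. S1S2 cells derive from it by CRISPR/Cas9 disruption of Suv39h1 and Suv39h2, and G9Gl cells by disruption of G9a (Ehmt2) and Glp (Ehmt1). After such disruption, the methods say, an inducible Cre construct with puromycin resistance was added again and lines were kept in puromycin. Whether this holds for the cultures sequenced here is not given in the labels. Each mutant is 1 clone, so that genotype and clone cannot be told apart, and no animal age, drug or time point is given in the labels. It was assumed that the study's methods also describe these libraries.

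The libraries held between 21319778 and 32157623 gene counts, with S1S2 cells at the low end. In S1S2 cells Suv39h1 RNA was lower than in WT (log2 fold change -1.36) and Suv39h2 RNA was not (0.70), and in G9Gl cells Ehmt2 (-1.20) and Ehmt1 (-1.04) were lower. Of 9 fibroblast markers all were detected, and their summed level ranged from 9862 to 11360 CPM (counts scaled to library size) in WT, from 7404 to 7470 in S1S2 and from 7799 to 8658 in G9Gl libraries. Collagens made up most of the difference, Col1a2 at 2395, 395.3 and 2030 CPM as means of WT, S1S2 and G9Gl cells. Pdgfra (14.5, 3.54 and 4.02), Pdgfrb (54.0, 24.5 and 21.4), Thy1 (4.99, 2.05 and 38.3) and S100a4 (68.3, 36.1 and 82.9) were also lower in S1S2 than in WT cells, and Vim (1458, 2399 and 1250) and Fn1 (1627, 1731 and 1497) were higher. Summed markers of neurons, almost all Tubb3, were highest in S1S2 libraries, at 37.6 to 42 CPM against 24.2 to 25.7 in WT and 18.5 to 25.9 in G9Gl libraries. Those of blood cells, almost all Cd68, ranged from 4.31 to 4.46 CPM in WT, from 3.24 to 4.05 in S1S2 and from 4.67 to 4.896 in G9Gl libraries. The markers Cdh1, Krt5, Emcn, Adgre1, Itgam, Tyrobp and Rbfox3 were at or under 3 counts in each library. The epithelial and endothelial sums were highest in G9Gl cells, at 4.25 to 5.32 and 0.718 to 2.11 CPM, against at most 0.3999 and 0.165 in WT. Krt14 (4.39 CPM) and Cdh5 (1.01 CPM) made up most of them, both with 0 counts in WT. Tek and Cldn4 also had higher means in G9Gl than in WT cells, and Epcam and Pecam1 had lower ones.

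A typical serpin presents an exposed reactive loop as bait. When a protease cuts the loop, the serpin changes shape and traps the enzyme in a covalent complex, so each molecule is used up once. Secreted members restrain plasminogen activation, coagulation and complement in connective tissue, clade B members mostly act inside cells, and some family members have lost inhibition and serve as chaperones or signalling factors. H3K9 methylation, the product of the enzymes removed here, marks repressed chromatin.

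The promoter windows of 5 genes are shown: Serpinf1, Serpine2 and Serpinb9, the listed genes that passed the limits on adjusted p and fold change given below, Serpinb6a as the other listed gene in the Serpinb9 cluster, and Serpinb9b, not on the list, as the gene next to Serpinb9. Windows run from 250 bases before to 50 bases after the annotated start (RefSeq, GRCm38.p6), and 7 of the 8 listed genes had one, Serping1 being the other. Capitals mark CpG dinucleotides, the substrate of DNA methylation.
Serpinf1 promoter window, chr11:75422574-75422873, minus strand: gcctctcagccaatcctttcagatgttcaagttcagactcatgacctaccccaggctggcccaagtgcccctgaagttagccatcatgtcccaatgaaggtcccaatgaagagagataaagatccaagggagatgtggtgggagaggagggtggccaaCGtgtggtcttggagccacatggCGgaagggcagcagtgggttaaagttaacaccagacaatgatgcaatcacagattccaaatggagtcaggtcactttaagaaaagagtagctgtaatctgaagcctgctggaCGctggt
Serpine2 promoter window, chr1:79858616-79858915, minus strand: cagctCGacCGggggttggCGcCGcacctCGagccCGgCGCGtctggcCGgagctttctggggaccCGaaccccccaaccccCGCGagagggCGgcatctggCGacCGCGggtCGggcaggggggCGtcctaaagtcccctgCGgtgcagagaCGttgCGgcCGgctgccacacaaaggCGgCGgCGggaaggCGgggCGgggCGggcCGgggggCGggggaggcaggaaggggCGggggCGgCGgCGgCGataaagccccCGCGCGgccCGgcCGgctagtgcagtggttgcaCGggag
Serpinb6a promoter window, chr13:34002745-34003044, minus strand: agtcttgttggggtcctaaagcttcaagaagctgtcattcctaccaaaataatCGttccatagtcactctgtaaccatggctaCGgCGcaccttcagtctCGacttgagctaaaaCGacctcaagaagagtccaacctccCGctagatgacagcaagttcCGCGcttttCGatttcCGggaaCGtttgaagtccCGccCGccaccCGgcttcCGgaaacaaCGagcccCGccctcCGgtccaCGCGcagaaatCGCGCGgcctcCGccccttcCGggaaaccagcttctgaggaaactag
Serpinb9 promoter window, chr13:33004291-33004590, plus strand: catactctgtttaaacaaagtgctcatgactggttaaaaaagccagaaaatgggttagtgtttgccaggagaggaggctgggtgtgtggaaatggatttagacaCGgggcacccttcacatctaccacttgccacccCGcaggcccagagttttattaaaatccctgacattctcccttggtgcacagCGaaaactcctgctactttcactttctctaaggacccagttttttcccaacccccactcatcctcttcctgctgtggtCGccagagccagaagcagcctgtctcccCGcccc
Serpinb9b promoter window, chr13:33027164-33027463, plus strand: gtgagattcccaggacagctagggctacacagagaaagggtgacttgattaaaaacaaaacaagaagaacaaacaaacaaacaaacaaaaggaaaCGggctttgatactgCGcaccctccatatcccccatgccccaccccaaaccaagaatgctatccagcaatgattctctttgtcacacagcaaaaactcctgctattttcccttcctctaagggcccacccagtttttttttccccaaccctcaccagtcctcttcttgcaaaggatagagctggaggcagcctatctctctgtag
The Serpine2 window held 41 CpG, more than 96.7% of 27025 mouse promoter windows contain, and the Serpinb6a window held 25. Serpinf1 had 3, Serpinb9 had 5 and Serpinb9b had 2, against a median of 7 over all windows. Motifs were searched on both strands, with positions counted from the start at 1. The core of interferon-stimulated response elements (GAAA, any 2 bases, GAAA) occurred once in the Serpinb9 window, with the first base at -46, and once in the Serpinb6a window at -84, against 3.49% of all windows. The Serpinb6a match overlaps a STAT motif (TTC, any 3 bases, GAA) at -77, and the window holds a further match to this motif at 21. The motif is found in 8.47% of windows. CCAAT occurred 3 times in the Serpinf1 window and in 37.9% of windows. TATAAA (14.2% of windows), TGANTCA (7.93%), CACGTG (7.24%) and the heat shock element (0.529%) did not occur in these 5 windows. These matches are letters only, and no binding or methylation was measured.

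Serpinf1 encodes pigment epithelium-derived factor, a secreted serpin without protease inhibition that is known as an inhibitor of blood vessel growth. WT libraries measured 149, 141 and 169.7 CPM, S1S2 libraries 1.33, 0.838 and 1.32, and G9Gl libraries 217, 176 and 188. The 3 genotypes did not overlap, with S1S2 cells close to absence and G9Gl cells slightly above WT. S1S2 cells were 134-fold below WT (log2 fold change -7.07, SE 0.22, n = 3 libraries per genotype) and G9Gl cells 1.26-fold above it (0.34, SE 0.12). The raw counts left in S1S2 cells were 29, 23 and 28. The gene lies on chromosome 11 (75409769 to 75422701, GRCm38), and none of its 75-base stretches is found in another annotated gene. The fibroblast marker sum was also lowest in S1S2 cells, where Col1a1, Col1a2, Col3a1, Pdgfra, Pdgfrb, Thy1 and S100a4 had lower and Vim and Fn1 higher means than in WT cells. The neuron sum was highest and the blood sum lowest there, and the part of these sums in the S1S2 levels of Serpinf1, Serpinh1, Serpinb6a and Serpinb9 was not tested. In bulk RNA, fewer cells of a type and less RNA per cell cannot be told apart.

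Serpine2 (protease nexin-1), Serpinb2 (plasminogen activator inhibitor type 2) and Serpini1 (neuroserpin) inhibit plasminogen activators, and Serpine2 also inhibits thrombin. All were near the detection limit. Serpine2 had 0, 0 and 1 counts in WT, 0, 0 and 1 in S1S2, and 22, 26 and 23 in G9Gl libraries. Its RNA was thus almost confined to G9Gl cells, where the level was still only 0.819 ± 0.1001 CPM (SD, n = 3). From the summed counts, the ratio of G9Gl to WT was 76.6 with a 95% exact interval of 13.3 to 3066, which covers counting error only. Serpine2 lies on chromosome 1 (79794197 to 79861180).

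Serpinb2 had 0 counts in all WT and all S1S2 libraries and 17, 4 and 7 in G9Gl libraries. At a floor of 3 counts over a genotype's libraries, this made G9Gl cells at least 10.1-fold higher than WT and at least 7.56-fold higher than S1S2. The G9Gl libraries did not overlap with the others, although 17 counts in the first of them made up most of the sum. The epithelial and endothelial marker sums, mostly Krt14 and Cdh5, were likewise highest in G9Gl cells, and their part in the levels of Serpine2, Serpinb2 and Serpinb9 was not tested. Of the 75-base stretches of Serpinb2, 8.998% also occur in its neighbour Serpinb10. Serpini1 was detected throughout at a low level, with 8, 12 and 23 counts in WT, 12, 12 and 18 in S1S2 and 12, 4 and 6 in G9Gl libraries. The mutants overlapped with WT, with log2 fold changes of 0.38 (SE 0.47) for S1S2 and -0.85 (SE 0.53) for G9Gl. Only G9Gl and S1S2 libraries were separate from each other for this gene, and only narrowly after scaling (0.421 against 0.437 CPM at the closest), since their raw counts overlapped. The ratio of summed counts was 0.424 (95% exact interval 0.241 to 0.727, counting error only).

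Serping1 encodes the C1 inhibitor, which blocks the first proteases of the complement cascade and plasma kallikrein. It had 2, 6 and 10 counts in WT, 4, 0 and 1 in S1S2 and 2, 1 and 0 in G9Gl libraries. The libraries of the 3 genotypes overlapped. The summed counts gave a ratio of 0.1797 between G9Gl and WT (95% exact interval 0.0339 to 0.616) and of 0.3698 between S1S2 and WT (0.107 to 1.03). At this depth a difference between S1S2 and WT was not detectable.

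Serpinh1 (Hsp47) is a chaperone of the endoplasmic reticulum that binds procollagen and does not inhibit proteases. WT libraries measured 1329, 1267 and 1274 CPM, S1S2 libraries 989, 999.7 and 1038, and G9Gl libraries 1263, 1194 and 1192. It was the most abundant of the 8 genes in each genotype, with 443.7 to 567 CPM per kb of transcript as genotype means. S1S2 cells were separate from WT and 1.28-fold lower (log2 fold change -0.35, SE 0.030). G9Gl cells were also separate from WT, but by only -0.08 (SE 0.035). Among its clients, Col1a2 measured 2395 ± 90.9 CPM in WT, 395.3 ± 11.9 in S1S2 and 2030 ± 77.6 in G9Gl cells (SD, n = 3). Col3a1 measured 1527 ± 42.4, 190.1 ± 14.7 and 844.3 ± 21, and Col1a1 3405 ± 460.0, 2644 ± 97.3 and 2506 ± 249.2. All 3 means were lower in both mutants than in WT cells.

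Serpinb6a and Serpinb9 are clade B serpins that stay inside cells. Serpinb6a inhibits trypsin-like proteases and cathepsin G, and Serpinb9 is the inhibitor of granzyme B that protects cells against cytotoxic granules. Serpinb6a measured 162, 155 and 176 CPM in WT, 246, 253 and 247 in S1S2 and 205, 194 and 217 in G9Gl libraries. The 3 genotypes were separate, S1S2 being highest at 1.51-fold WT (log2 fold change 0.60, SE 0.055) and G9Gl lying between (0.32, SE 0.071). Nqo2, Ripk1 and the antisense gene 1110046J04Rik overlap Serpinb6a on the opposite strand, and their log2 fold changes in S1S2 cells were 0.05, 0.16 and 0.57. Whether reads were counted by strand is not given in the sources used here, so their reads cannot be told apart with certainty.

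For Serpinb9 the WT libraries measured 25.1, 26.2 and 31.6 CPM, those of S1S2 cells 60.2, 64.5 and 70.9, and those of G9Gl cells 129, 114 and 116. The levels formed 3 separate steps, WT lowest and G9Gl highest. S1S2 cells were 2.36-fold above WT (log2 fold change 1.24, SE 0.12), G9Gl cells 4.33-fold above WT (2.12, SE 0.12) and 1.84-fold above S1S2 (0.88, SE 0.089). Serpinb9 lies on chromosome 13 (33003250 to 33017957), and none of its 75-base stretches occurs in another annotated gene.

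**Figure D1:**
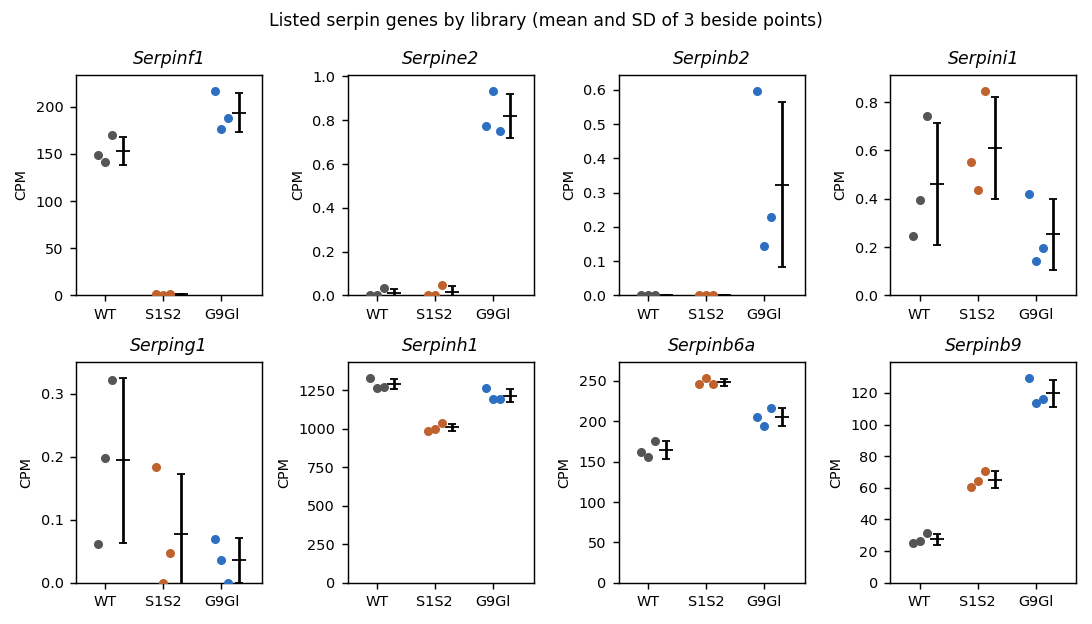
CPM (y axis, from 0) of the 8 listed serpin genes in each library of WT, S1S2 and G9Gl cells (x axis), with the mean and SD of 3 libraries beside the points. SD bars that would reach below 0 end at the axis. Serpinf1 is between 0.838 and 1.33 CPM in S1S2 cells, Serpine2 and Serpinb2 have reads almost only in G9Gl cells, and Serpinb9 forms 3 steps.

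Of the 8 genes, 6 passed the filter on low counts, Serpine2 through the G9Gl libraries alone. Genes were called in a fit over 15540 genes if the adjusted p did not exceed 0.01 and the level changed at least 2-fold. These limits were met by Serpinf1 (lower) and Serpinb9 (higher) in S1S2 cells, by Serpine2 and Serpinb9 (both higher) in G9Gl cells, and by Serpinf1 and Serpine2 (both higher in G9Gl) between the mutants. Over all genes 9% (4.66% higher, 4.34% lower), 10.2% (6.77% higher, 3.40% lower) and 13.1% (7.97% higher, 5.08% lower) met them, and since the 8 genes were listed with these values known, their calls are a description and nothing is read from the comparison. Serpine2 in particular had to be higher in G9Gl cells, having entered the fit through them alone. Both contrasts against WT share the WT libraries. Libraries did not overlap for 4, 5 and 6 of the 6 genes, against 56.0%, 52.8% and 60.8% of all genes tested. The adjusted p alone was met by 37.9%, 35.0% and 42.6% of all genes.

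Between genes, levels were compared per kb of the longest transcript. In WT cells the order was Serpinh1, Serpinf1 (83.6 ± 8.15 CPM per kb, SD, n = 3), Serpinb6a (75.04 ± 4.86) and Serpinb9 (7.96 ± 0.997), followed by Serpini1 (0.113 ± 0.062), Serping1 (0.1098 ± 0.0738), Serpine2 and Serpinb2. Serpinf1 overlapped with Serpinb6a, Serpini1 with Serping1, and Serpine2 with Serpinb2. The order in S1S2 cells put Serpinf1 (0.635 ± 0.153) behind Serpinb9 (18.8 ± 1.54). In G9Gl cells Serpine2 (0.241 ± 0.0295) and Serpinb2 (0.162 ± 0.121) stood above Serpini1 (0.06198 ± 0.036) and Serping1, and the libraries of neighbours in this order overlapped.

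The rest of the family was examined next, to see which other serpins differ between the genotypes. Of 53 annotated serpin genes outside the list, 27 had a count in some library and 10 could be tested. The filter asks for enough counts in 3 libraries, which 4 of the 10 met only with the G9Gl libraries and 1 only with those of WT. These had to be higher in that genotype and are given below as counts, without a p-value. Of the other 5 genes, 3 rose and 2 did not pass the limits in S1S2 cells (9% of all genes were called there), and the same numbers held in G9Gl cells (10.2% of all genes). Serpinb1a, which did not pass in G9Gl cells, had an adjusted p of 2.02e-04 there but stayed under the fold limit. Between the mutants 2 of the 5 were higher in G9Gl cells and 3 did not pass (13.1% of all genes, edgeR quasi-likelihood test). With at least 10 counts required in every library, 5 genes were left and 3 were called in each mutant.

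Serpinb9 lies among several of these genes. A cluster of clade B serpins on chromosome 13 holds 15 annotated members, 2 of them on the list, and 7 of the other 13 were tested. Of these 7, 4 had entered through the G9Gl libraries alone. Among the other 3, Serpinb9b and Serpinb6b rose in both mutants and were higher in G9Gl than in S1S2 cells, and Serpinb1a did not pass. This grouping by position was made after the values had been seen.

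Serpinb9b, a close relative of Serpinb9 and the next serpin along the chromosome, measured 11.4 ± 0.778 CPM in WT, 31.9 ± 0.915 in S1S2 and 131 ± 4.996 in G9Gl cells (SD, n = 3). It rose 2.81-fold in S1S2 (log2 fold change 1.49, adjusted p = 3.93e-12) and 11.5-fold in G9Gl cells (3.52, adjusted p = 1.53e-17). The steps follow the same order as those of Serpinb9. Serpinb6b had 16, 13 and 21 counts in WT, 55, 63 and 30 in S1S2 and 615, 564 and 642 in G9Gl libraries. Its log2 fold changes were 1.97 (adjusted p = 3.14e-06) and 5.28 (adjusted p = 5.84e-14), so the gene was again lowest in WT and highest in G9Gl cells.

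The 4 cluster genes that passed the filter through the G9Gl libraries alone had no library above the filter limit in WT. Serpinb1c had 2, 4 and 3 counts in WT, 7, 10 and 7 in S1S2 and 59, 55 and 48 in G9Gl libraries, with ratios of summed counts to WT of 3.55 (95% exact interval 1.59 to 8.68) in S1S2 and 19.4 (9.98 to 43.2) in G9Gl cells. Serpinb1b had 3, 5 and 9 counts in WT, 0, 1 and 2 in S1S2 and 25, 34 and 39 in G9Gl libraries, a ratio of summed counts of G9Gl to WT of 6.22 (95% exact interval 3.69 to 11.1). Serpinb9g had 2, 1 and 5 counts in WT, 0, 6 and 0 in S1S2 and 239, 211 and 215 in G9Gl libraries, a ratio to WT of 89.6 (45.2 to 208.5). For Serpinb9f, with 1 count over the WT libraries and 23, 31 and 48 in G9Gl libraries, the ratio of summed counts was 110 (95% exact interval 19.3 to 4386). Serpinb9f and Serpinb9g share 65.5% and 44.9% of their 75-base stretches with other annotated genes, mainly each other and Gm11397, so which of them the reads came from is uncertain. Serpinb1a, at the edge of the cluster, was close to level in S1S2 cells (log2 fold change 0.03, adjusted p = 0.87) and differed by 0.63 in G9Gl cells.

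**Figure D2:**
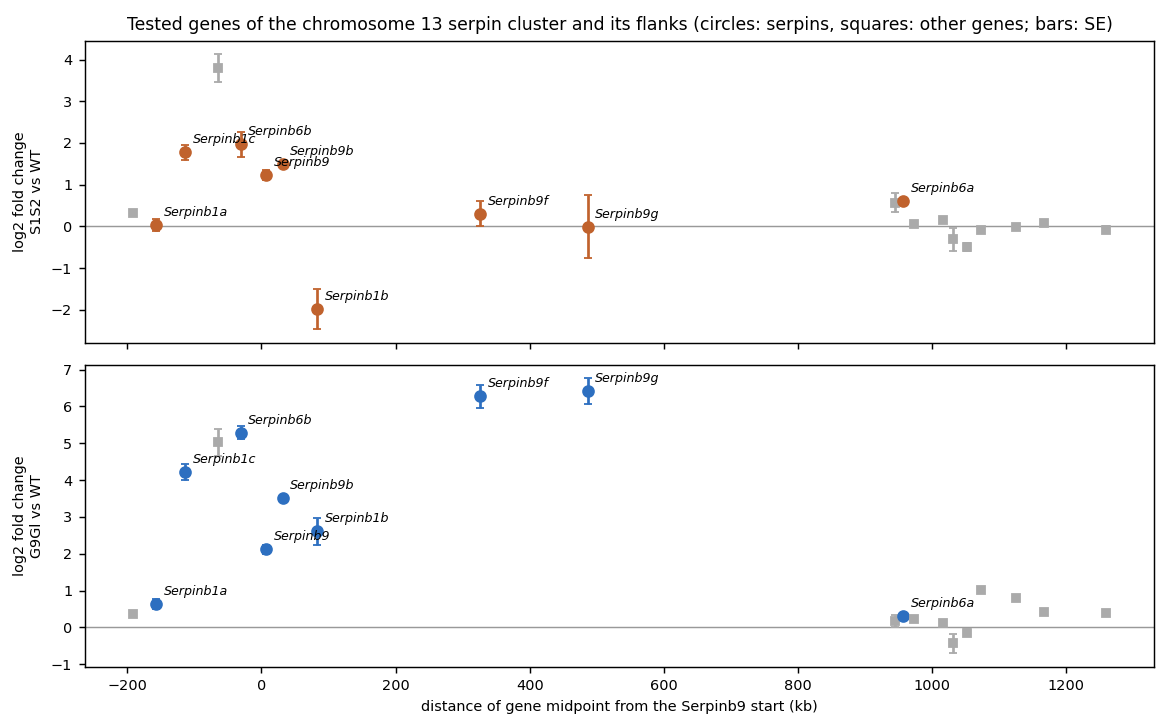
Log2 fold change against WT (y axis, with SE) of tested genes in S1S2 cells (top) and G9Gl cells (bottom) by distance of the gene midpoint from the Serpinb9 start in kb (x axis). Circles are serpin genes and squares other genes within 250 kb of Serpinb9 or Serpinb6a. In G9Gl cells Serpinb9b lies at 3.52, Serpinb6b at 5.28 and Serpinb9, a listed gene, at 2.12. Serpinb1b, Serpinb1c, Serpinb9f, Serpinb9g and Gm11382 passed the filter through the G9Gl libraries alone, so their height there is fixed by the filter and their fitted values rest on few WT counts.

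The cluster also holds genes that are not serpins. Of 11 tested within 250 kb of Serpinb9 or Serpinb6a, 9 of them around Serpinb6a, 1 was called in S1S2 cells (9% of all genes) and 2 in G9Gl cells (10.2% of all genes). The pseudogene Gm11382, inside the cluster, passed the filter through the G9Gl libraries alone, with ratios of summed counts to WT of 16.6 (95% exact interval 4.15 to 145) in S1S2 and 39.4 (10.5 to 331) in G9Gl cells. Tubb2a, beyond Serpinb6a, had a log2 fold change of 1.01 in G9Gl cells (adjusted p = 1.29e-10), but it was under the fold limit without a composition factor (0.978), with the chromosome median removed (0.957), without WT replicate 2 (0.971) and without G9Gl replicate 2 (0.976). The median over chromosome 13 was 0.00 in S1S2 and 0.05 in G9Gl cells.

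Outside chromosome 13, Serpina3g passed the filter through the WT libraries alone. It had 44, 67 and 59 counts in WT, 10, 2 and 0 in S1S2 and 6, 7 and 0 in G9Gl libraries. The ratios of summed counts to WT were 0.09396 (95% exact interval 0.0476 to 0.1685) in S1S2 and 0.0825 (0.0430 to 0.145) in G9Gl cells, and the libraries of both mutants were separate from those of WT. Serpinc1 (antithrombin) did not pass in any contrast (log2 fold changes from -0.46 to 0.29).

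**Figure D3:**
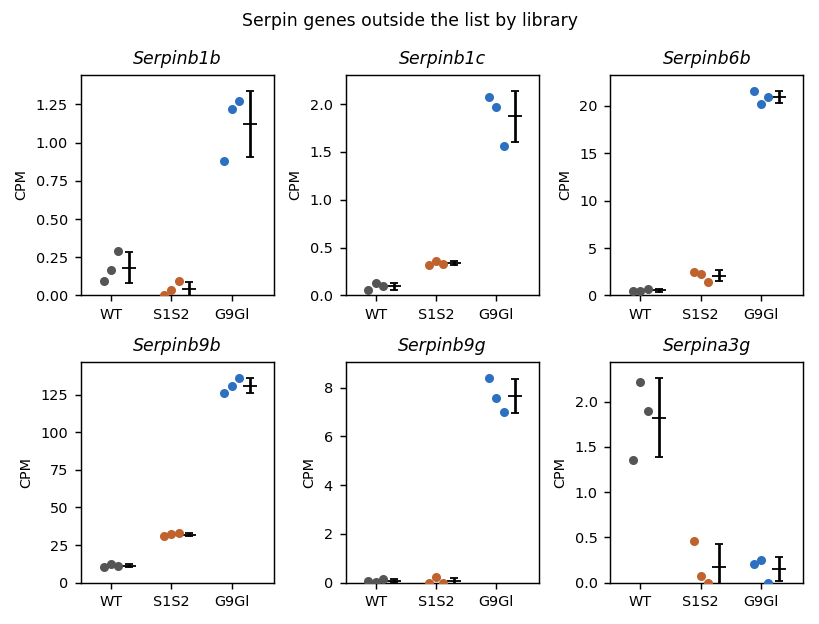
CPM (y axis, from 0) of 6 serpin genes outside the list in each library (x axis, by genotype), with the mean and SD of 3 libraries. The chromosome 13 genes Serpinb1b, Serpinb1c, Serpinb6b, Serpinb9b and Serpinb9g are highest in G9Gl cells, and Serpina3g is lower in both mutants than in WT.

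The proteases and partners on which serpins act were then compared, in 68 genes of 5 lists. Of these, 45 were tested. In S1S2 cells 3 rose and 6 fell (20.0%, against 9% of all genes), and in G9Gl cells 4 rose and 2 fell (13.3%, against 10.2%). Kdr among the former and Casp1 among the latter had entered through the mutant in which they were high. The median log2 fold changes were 0.000 and 0.11. Between the mutants 7 were higher and 5 lower in G9Gl cells (26.7%, against 13.1%). Casp1 and Kdr were among them too, each having entered the fit through the mutant in which it was high. S100a10, P4ha3 and Vegfa, also among them, were under the fold limit in some alternative fits, so nothing is read from the share.

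Among 15 genes of plasminogen activation, of which 9 were tested, the activators moved differently in the mutants. Plau, the urokinase that Serpinb2 and Serpine2 inhibit, measured 35.8 ± 1.99 CPM in WT, 46.1 ± 3.02 in S1S2 and 127 ± 11.2 in G9Gl cells. It rose 3.55-fold in G9Gl cells (log2 fold change 1.83, adjusted p = 3.03e-13), and in S1S2 cells the difference of 0.37 (adjusted p = 2.90e-04) stayed under the fold limit. Plat, the tissue-type activator inhibited by Serpini1, measured 37.0 ± 0.792 CPM in WT, 82.8 ± 2.504 in S1S2 and 22.2 ± 0.356 in G9Gl cells. It rose 2.24-fold in S1S2 cells (1.16, adjusted p = 3.03e-12) and was lower in G9Gl cells (-0.74, adjusted p = 2.14e-09).

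S100a10, a plasminogen receptor subunit, rose in S1S2 cells (1.24, adjusted p = 7.06e-12), and Vldlr, a receptor that clears protease-serpin complexes, fell there (-3.17, adjusted p = 2.23e-08). Plaur, the urokinase receptor, differed by 0.95 and 0.97 in S1S2 and G9Gl cells, just under the fold limit. Plg, the plasminogen gene itself, had no count in any library and F2 (thrombin) 1 count in all.

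In the complement and contact list, 5 of 15 genes found in the table were tested. Of the 5, 2 fell in S1S2 cells (4.34% of all genes fell there), and 1 rose and 1 fell in G9Gl cells (6.77% and 3.40% of all genes). C1s1, a target protease of Serping1, measured 5.80 ± 1.07 CPM in WT, 1.07 ± 0.142 in S1S2 and 3.70 ± 0.302 in G9Gl cells, and fell in S1S2 cells (-2.43, adjusted p = 1.15e-08). C1ra, its partner, differed by -0.78 in S1S2 (adjusted p = 7.38e-05) and by -0.03 in G9Gl cells (adjusted p = 0.867). C3, the central complement protein, rose in G9Gl cells (2.77, adjusted p = 4.09e-08), and Masp1 of the lectin pathway fell there (-2.16, adjusted p = 2.76e-12). C2 fell in S1S2 cells (-1.11, adjusted p = 5.33e-04).

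The 18 genes of collagen folding and secretion, the setting of Serpinh1, were all tested. None was called in S1S2 cells by edgeR or DESeq2, against 9% of all genes by edgeR. There 9 passed the adjusted p alone (2 higher, 7 lower, against 37.9% of all genes at any fold) and 11 had an unadjusted p under 0.05. In G9Gl cells 1 was called (5.56%, against 10.2% of all genes). That gene was P4ha3, a subunit of a collagen prolyl hydroxylase (-1.10, adjusted p = 0.00127), and without G9Gl replicate 2 it was under the fold limit (-0.92). P4hb, the shared subunit of these hydroxylases, had log2 fold changes of 0.04 and -0.11.

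Of 14 intracellular and granule proteases 7 were tested. Gzmb and Ctsg, the proteases that Serpinb9 and Serpinb6a inhibit in blood cells, had no count in any library. Casp1, an inflammatory caspase, had 0 counts in all WT and S1S2 libraries and 95, 87 and 105 in G9Gl libraries, which made it at least 103-fold higher than WT. It passed the filter through the G9Gl libraries alone, so no p-value is given. Casp4 measured 7.12 ± 1.46 CPM in WT, 2.43 ± 0.509 in S1S2 and 27.6 ± 2.45 in G9Gl cells. It fell in S1S2 (-1.56, adjusted p = 8.21e-07) and rose in G9Gl cells (1.96, adjusted p = 4.75e-10). Cathepsins B and L (Ctsb and Ctsl) differed by 0.30 and 0.23 in S1S2 and by 0.22 and 0.504 in G9Gl cells.

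The last list held receptors of Serpinf1 and angiogenic factors, 6 genes that were all tested. Flt1 (-1.46, adjusted p = 8.54e-11) and Vegfa (-1.01, adjusted p = 1.63e-05) were past the limits as lower in S1S2 cells. Vegfa was under the fold limit with the chromosome median removed (-0.91), without WT replicate 3 (-0.88), without S1S2 replicate 1 (-0.87) and without S1S2 replicate 2 (-0.93). Kdr, a VEGF receptor, had 0, 0 and 2 counts in WT and 28, 28 and 29 in S1S2 libraries, through which alone it passed the filter, a ratio of 56.6 (95% exact interval 15.2 to 475). Pnpla2, a lipase and receptor of the Serpinf1 protein, differed by 0.75 in S1S2 and 0.68 in G9Gl cells, and the Wnt co-receptor Lrp6 by -0.06 and 0.04. None of the 6 was called in G9Gl cells by edgeR or DESeq2, against 10.2% of all genes by edgeR. There 3 passed the adjusted p alone (35.0% of all genes did at any fold) and 4 had an unadjusted p under 0.05.

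**Figure D4:**
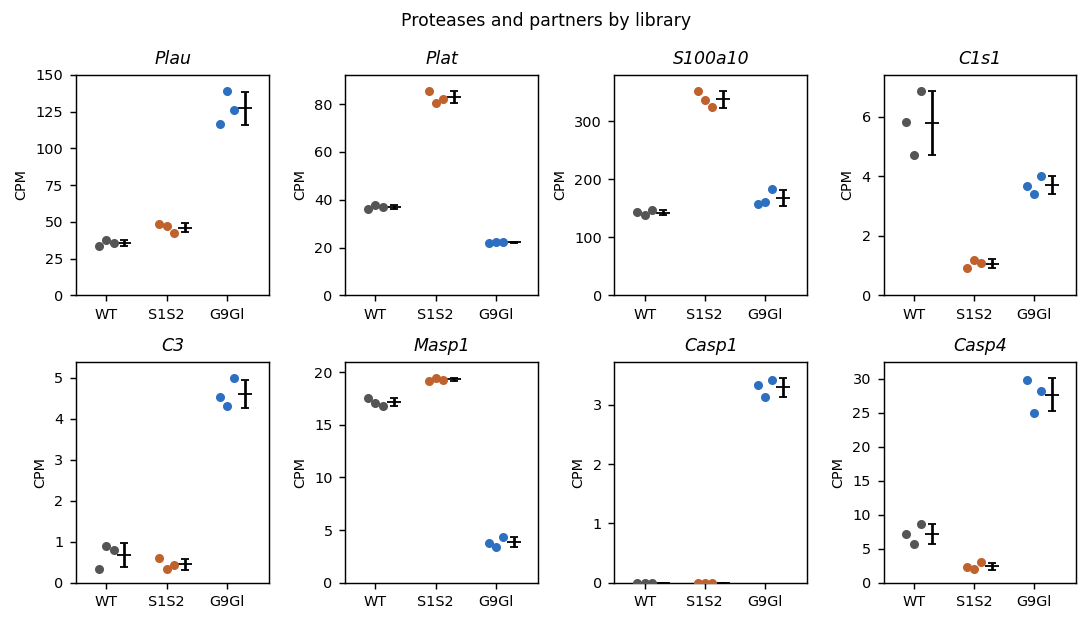
CPM (y axis, from 0) of 8 proteases and partners in each library (x axis, by genotype), with the mean and SD of 3 libraries. Plau, C3, Casp1 and Casp4 are highest in G9Gl cells, Plat and S100a10 in S1S2 cells, C1s1 is lowest in S1S2 cells and Masp1 in G9Gl cells.

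Genes next to the 8 serpins were examined to ask whether the differences extend to their surroundings. Within 250 kb of any of them lay 116 annotated genes that are not serpins, and 59 were tested. In S1S2 cells 3 rose and 3 fell (10.2%, against 9% of all genes), and in G9Gl cells 6 rose and 1 fell (11.9%, against 10.2%), with Slc43a3 and Gm11382 having entered through the G9Gl libraries alone. Around Serpinf1, none of 18 tested genes was called in S1S2 cells by edgeR or DESeq2, where 4 passed the adjusted p alone and 6 had an unadjusted p under 0.05, while Serpinf1 itself differed 134-fold. The log2 fold changes of these 18 genes in S1S2 cells lay between -0.85 and 0.51. Hic1, a transcriptional repressor, had log2 fold changes of -0.79 in S1S2 and -1.10 in G9Gl cells (adjusted p = 1.71e-05 for the latter). Near Serping1, 2 of 13 tested genes fell in S1S2 cells (4.34% of all genes fell there), with Slc43a1, an amino acid transporter, lowest (-3.35, adjusted p = 4.77e-08). The other, Ypel4, missed the limit on adjusted p with DESeq2 (0.0374), with the replicate block in edgeR (0.014) and in most fits without 1 library. In G9Gl cells 3 of the 13 were called as higher (6.77% of all genes). P2rx3, an ATP-gated channel, rose there (1.84, adjusted p = 3.04e-04). Slc43a3, which passed the filter through the G9Gl libraries alone, was higher there with a ratio of summed counts of 64.7 (95% exact interval 17.5 to 540.4). Near Serpinh1, Mogat2 fell in S1S2 (-2.32, adjusted p = 1.81e-05) and rose in G9Gl cells (2.18, adjusted p = 2.71e-08), and Arrb1 (1.94, adjusted p = 6.23e-12) and Gdpd5 (1.16, adjusted p = 8.91e-10) rose in S1S2 cells.

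For the 3 listed genes with a log2 fold change of at least 1 in a mutant, the genes with the most similar pair of log2 fold changes against WT were sought among 10848 genes with a mean count over 100. Closest to Serpinf1 were Lrrc17 (-8.12 in S1S2 and -0.33 in G9Gl, at a distance of 1.25), Col6a3 (-5.15 and 0.70, 1.95) and Dkk3 (-5.09 and 0.84, 2.04). The nearest genes of Serpinb9 were at distances of 0.109 to 0.161, namely Onecut2 (1.19 and 2.02), Srgap3 (1.11 and 2.09) and Spns2 (1.38 and 2.19). Closest to Serpine2 were Tgtp2 (0.16 and 5.98, 0.257), Gvin1 (0.02 and 5.93, 0.326) and Dennd2d (0.19 and 6.08, 0.341), although the fitted values of Serpine2 rest on 1 WT count. The comparison is over the means of 3 genotypes of 3 libraries each.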

How the data were processed

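RNA of 9 MEF cultures, 3 per genotype, was sequenced as stranded total RNA libraries. The files deposited by the authors hold raw counts of reads for each Ensembl gene. Reads had been trimmed with cutadapt, aligned to GRCm38 with STAR 2.5.2b and counted over genes with TEtranscripts. The annotation release and the strand setting are not given in the sources used here.

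Of 47937 genes, 47224 were matched to GENCODE M21, which gave symbols, positions and transcript lengths, and Klkb1 was not found among the partner genes. Counts were filtered with filterByExpr (about 10 counts at the median library, 0.352 CPM, in 3 libraries), scaled by TMM and tested in edgeR 4.0.16 (quasi-likelihood F test, R 4.3.3), with 1 coefficient per genotype over all 9 libraries. p-values were adjusted by Benjamini-Hochberg over 15540 genes, and they measure the spread between cultures of 1 clone per genotype. The SE of a log2 fold change comes from replicate log2 CPM with a prior count of 2. The test was also tried on simulated counts. Ratios for genes with few counts are of summed counts with exact binomial intervals, which cover counting error only.

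Members and gene lists were chosen with earlier results of these data known. Partner genes came from lists of known functions, neighbours from a 250 kb window, and named were called genes by size of change (at most 8 serpins per contrast, 3 partners per list and contrast, 3 neighbours per listed gene), plus best known proteases. Plaur, P4hb, Ctsb, Ctsl, Pnpla2 and Lrp6, which were not called against WT, were named after their values had been seen. The replicate numbers of the labels were checked as a pairing: deviations of same-numbered libraries correlated between -0.0686 and 0.124, so the libraries share only a number. No replicate pair was a duplicate (chi-square per degree of freedom of at least 2.57). Alternatives were DESeq2 1.42.0, other scalings, filters and thresholds, fits of fewer libraries, the replicate block and removal of chromosome medians. Repeat elements were not analysed here, and the values of 1 tested serpin gene outside the list, which is in the counts, are not reported here.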

Additional observations from a re-analysis of the deposited data

Results flagged for a closer look

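The genes below had log2 fold changes of opposite sign in the mutants, of which those of Serpinf1, Plat, Arrb1 and Slc43a1 in G9Gl cells were under the fold limit. For Serpinf1 every S1S2 library lay below and every G9Gl library above WT, with log2 fold changes of -7.07 and 0.34 and a difference between the mutants of 7.41, given without a p-value because the gene was listed with its values known. The difference was tested with the contrast of G9Gl against S1S2 (edgeR) for the others. It was -1.90 for Plat (1.16 in S1S2 and -0.74 in G9Gl cells, adjusted p = 3.00e-15) and 3.52 for Casp4 (-1.56 and 1.96, adjusted p = 2.15e-12). Beside Serpinh1 it was -2.79 for Arrb1 (1.94 and -0.86, adjusted p = 6.52e-14) and 4.50 for Mogat2 (-2.32 and 2.18, adjusted p = 1.57e-10). Beside Serping1 it was 4.20 for Slc43a1 (-3.35 and 0.85, adjusted p = 4.79e-10). Both contrasts against WT use the same WT libraries.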

How the results depend on the processing

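Without a fold limit and at an adjusted p of at most 0.05, the listed genes past the limit numbered 4 in S1S2, 4 in G9Gl and 6 between the mutants, the partner genes 31, 35 and 38, and the neighbouring genes 26, 34 and 32. Of these lists 6, 45 and 64 genes were tested. Of all genes, 37.9%, 35.0% and 42.6% passed at 0.01 with any fold. The share of all genes at 0.05 is not given, so nothing is read from these numbers. With at least 10 counts in every library, 1 listed gene was left as called in G9Gl cells and 1 between the mutants, because Serpine2 was no longer tested. That filter gave 3, 3 and 2 calls among other serpins, 4, 5 and 5 among neighbours and 7 partners between the mutants, with fewer genes tested. DESeq2, which also tested Serpinb2, called 2, 3 and 3 listed genes. With 0 counts in all WT and S1S2 libraries, Serpinb2 could only be higher in G9Gl cells. Leaving out each library in turn gave 2 listed genes in each contrast, 4 to 5, 8 to 9 and 6 to 7 other serpins, and 8 to 10, 5 to 7 and 9 to 12 partners. The fitted log2 fold change of Serpine2 in G9Gl cells ran from 5.30 to 7.50, the latter without WT replicate 3, which holds its only WT count. With the replicate block, the numbers of calls were again 2, 2 and 2 for listed genes and 5, 8 and 6 for other serpins, and the block ended only the call of Ypel4 beside Serping1 in S1S2 cells. No called value changed sign in 893 alternative values of genes outside the list, but 46 of them no longer met the limits. These genes had been chosen as called, and those that entered the fit through 1 genotype could hardly change sign. Low counts limit Serpine2, Serpinb2, Serpini1 and Serping1 most.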

Other observations

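A few serpin genes under the filter on low counts had reads mainly in G9Gl cells, and these were picked after their values had been seen. Serpina12 had 9, 4 and 11 counts in G9Gl libraries and 0 in all others. In the chromosome 13 cluster, Serpinb9c had 13, 6 and 6, Serpinb9d 12, 8 and 4, and Serpinb9e 8, 6 and 1 in G9Gl libraries, against at most 1 in a WT library for each. S1S2 libraries had 1, 5 and 1 counts for Serpinb9c, 1, 0 and 1 for Serpinb9d and 0, 0 and 1 for Serpinb9e. Of their 75-base stretches, 16.95%, 16.75% and 17.47% also occur in other annotated genes, which for Serpinb9d and Serpinb9e include Serpinb9f and Serpinb9g. The origin of these reads is therefore uncertain. Serpina3i, next to Serpina3g, had 8, 10 and 10 counts in WT libraries, 0, 0 and 1 in S1S2 and 1, 4 and 3 in G9Gl libraries.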
